A study of Mus musculus with 14 samples.

Results

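The genes described here are 9 genes of the interferon response in the hippocampus of newborn mice: the interferon-stimulated genes Ifit1, Ifit3, Isg15, Irf7, Bst2 and Ifi27, and B2m, H2-K1 and H2-D1, which encode MHC class I molecules. They were taken by symbol from a table of 36118 genes, all 9 were present, and all 9 were among the 16637 genes with enough counts to be tested. Interferons are secreted proteins that cells release on sensing viral or misplaced nucleic acid. They bind surface receptors, and the JAK kinases and STAT transcription factors downstream switch on a shared set of antiviral genes, many of which carry an interferon-stimulated response element (ISRE) at their promoter. The same signal raises MHC class I, which displays peptides from inside the cell to cytotoxic T cells and which neurons also use during synapse development.

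The study asked how loss of gasdermin D, the pore-forming protein of pyroptosis, changes the response of the newborn brain to high oxygen. Poly(A) RNA of the hippocampus was sequenced from 14 mice collected on postnatal day 15. Wild-type mice kept in room air (WT-RA, n = 4) or in 85% oxygen (WT-O2, n = 4) from postnatal day 1 to 14 were compared with Gsdmd knockout mice in room air (KO-RA, n = 3) or 85% oxygen (KO-O2, n = 3). All mice were labelled as C57/BL6, and the study's methods name C57BL/6N for the knockout. The knockout is carried in every cell of the body from conception, through a CRISPR/Cas9 deletion in an exon of Gsdmd, so the design does not separate brain cells from blood or lung. Wild-type mice were numbered GSD398 to GSD408 and knockout mice GSD489 to GSD496, so genotype cannot be told apart from the number range. Mouse GSD408 was titled as hyperoxia but carried a room air treatment field, and was taken as WT-O2 from its title. The study's wild-type mice were littermates of its knockouts, and which of these 14 shared a litter is not given in the sources used here.

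Each library held 27272270 to 28257496 estimated counts. Gsdmd had 41 to 63 counts in wild-type and 22 to 42 in knockout libraries, so the 2 ranges overlapped by 1 knockout mouse, and counts outside the deleted stretch do not check the knockout. Markers of neighbouring tissue differed by genotype: the summed level of 9 striatal neuron genes was 408.5 to 947 CPM (counts scaled to the size of each library) in wild-type and 160 to 268 in knockout libraries, 8 oligodendrocyte genes had 4898 to 19712 and 3327 to 5885 CPM, and 12 hippocampal neuron genes had 742 to 1152 and 1436 to 1808 CPM. The oligodendrocyte ranges overlapped. The sum of 8 astrocyte genes was 3869 to 4459 CPM in wild-type and 4540.5 to 5291 CPM in knockout libraries. That of 10 lymphocyte markers was 9.27 to 15.0 CPM in wild-type and 4.37 to 6.80 CPM in knockout libraries. The single markers did not share this gap. Log2 fold changes of the 6 tested ran from -2.80 to 0.34 in KO-RA against WT-RA (median -0.18, 5 below 0). In KO-O2 against WT-O2 they ran from -3.06 to 0.36 (median -0.15, 3 below 0). Choroid plexus genes ranged from 41.0 to 3439 CPM within the knockout mice. The sum of 18 microglial genes was 581 to 676 CPM over all 14 libraries. The part of these differences in the genotype results below was not tested, and in bulk tissue fewer cells of a type and less RNA per cell cannot be told apart.

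Promoter sequence is shown first for the members that carry an ISRE-like match, because these are the letters that STAT-containing complexes and interferon regulatory factors are known to read. RefSeq windows of GRCm38.p6, reaching from 250 bases before to 50 bases after the start of the gene, were held for 8 of the 9 genes, all but Ifi27. The ISRE core, spelled GAAANNGAAA and searched on both strands with overlaps kept, was found in 5 of these 8, against 3.44% of all 32851 windows. The stretches below run 5′ to 3′ along the gene with 25 bases on each side, and capitals mark the match, which reads TTTCNNTTTC where it lies on the other strand. Ifit1 is on the plus strand at chr19:34640760-34640838, Ifit3 on the plus strand at chr19:34583348-34583441, Isg15 on the minus strand at chr4:156200850-156200921, Bst2 on the minus strand at chr8:71537562-71537627 and B2m on the plus strand at chr2:122147523-122147582.
Ifit1: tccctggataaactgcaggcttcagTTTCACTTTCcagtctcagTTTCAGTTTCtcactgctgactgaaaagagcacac
Ifit3: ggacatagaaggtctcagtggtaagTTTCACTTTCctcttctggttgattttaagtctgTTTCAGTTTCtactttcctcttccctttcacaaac
Isg15: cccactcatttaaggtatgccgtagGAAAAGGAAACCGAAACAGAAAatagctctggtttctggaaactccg
Bst2: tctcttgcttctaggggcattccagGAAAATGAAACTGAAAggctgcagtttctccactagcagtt
B2m: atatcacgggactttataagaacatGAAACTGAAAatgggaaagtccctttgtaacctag

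Ifit1 and Ifit3 each held 2 separate matches, Isg15 held 3 that overlap, Bst2 held 2 that overlap and B2m held 1. At least 2 matches were present in 4 of the 8 genes and in 0.225% of all windows. The first base of the match lay 139 bases before the start in B2m and 78 bases before it in Isg15. The GAS core TTCNNNGAA, read by STAT dimers, was present only in Bst2 of the 8 genes, in a window set where 8.3% of windows held it. No match to either core was present in the windows of Irf7, H2-K1 and H2-D1, which says only that these letters were not there.

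The windows of H2-K1 and H2-D1 shared another element, chosen after the sequences were seen. The kB-type stretch GGGGATTCCCC, searched on both strands, stood in both, and in 10 of the 32851 windows (0.0304%). These 10 include the windows of H2-K1 and H2-D1 themselves. H2-K1 is on the minus strand at chr17:34000423-34000483 and H2-D1 on the plus strand at chr17:35262898-35262958, and capitals mark the stretch.
H2-K1: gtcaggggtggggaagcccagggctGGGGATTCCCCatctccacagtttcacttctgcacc
H2-D1: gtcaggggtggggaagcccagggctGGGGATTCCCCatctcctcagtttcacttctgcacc

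Near-identical copies bear on the counts of some members. In the GENCODE M21 transcripts, 61.8% of the distinct 31-base words of Ifit3 were shared with its tandem copy Ifit3b, and 26.7% of those of H2-D1 and 22.8% of those of H2-K1 were shared with other genes, among them class I genes of the H2-Q group. Ifit1 shared 10.5% and Isg15 12.8%, and Ifi27, Irf7, Bst2 and B2m shared none. The division of reads between Ifit3 and Ifit3b, and between H2-K1, H2-D1 and other class I genes, is therefore uncertain. Summed levels are given beside the single ones, and summed log2 fold changes beside them or in the last section.

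Of the 6 interferon-stimulated members, 5 stood highest in 1 room air wild-type mouse. Mouse GSD399 of WT-RA had the highest level of all 14 libraries for Ifit1, Ifit3, Isg15, Irf7 and Bst2. It was the highest of the 14 for 4.12% of all tested genes. Its Ifit3 was 5.47 times, its Ifit1 4.54 times, its Irf7 2.69 times, its Bst2 2.19 times and its Isg15 2.15 times the mean of the 3 other WT-RA mice. For Ifi27, B2m, H2-K1 and H2-D1 the same ratio was 0.948, 0.904, 1.07 and 1.10. It lay at least 2-fold above every other mouse of its group for 3 of the 9 members, Ifit1, Ifit3 and Irf7, and for 0.307% of all tested genes.

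**Figure D1:**
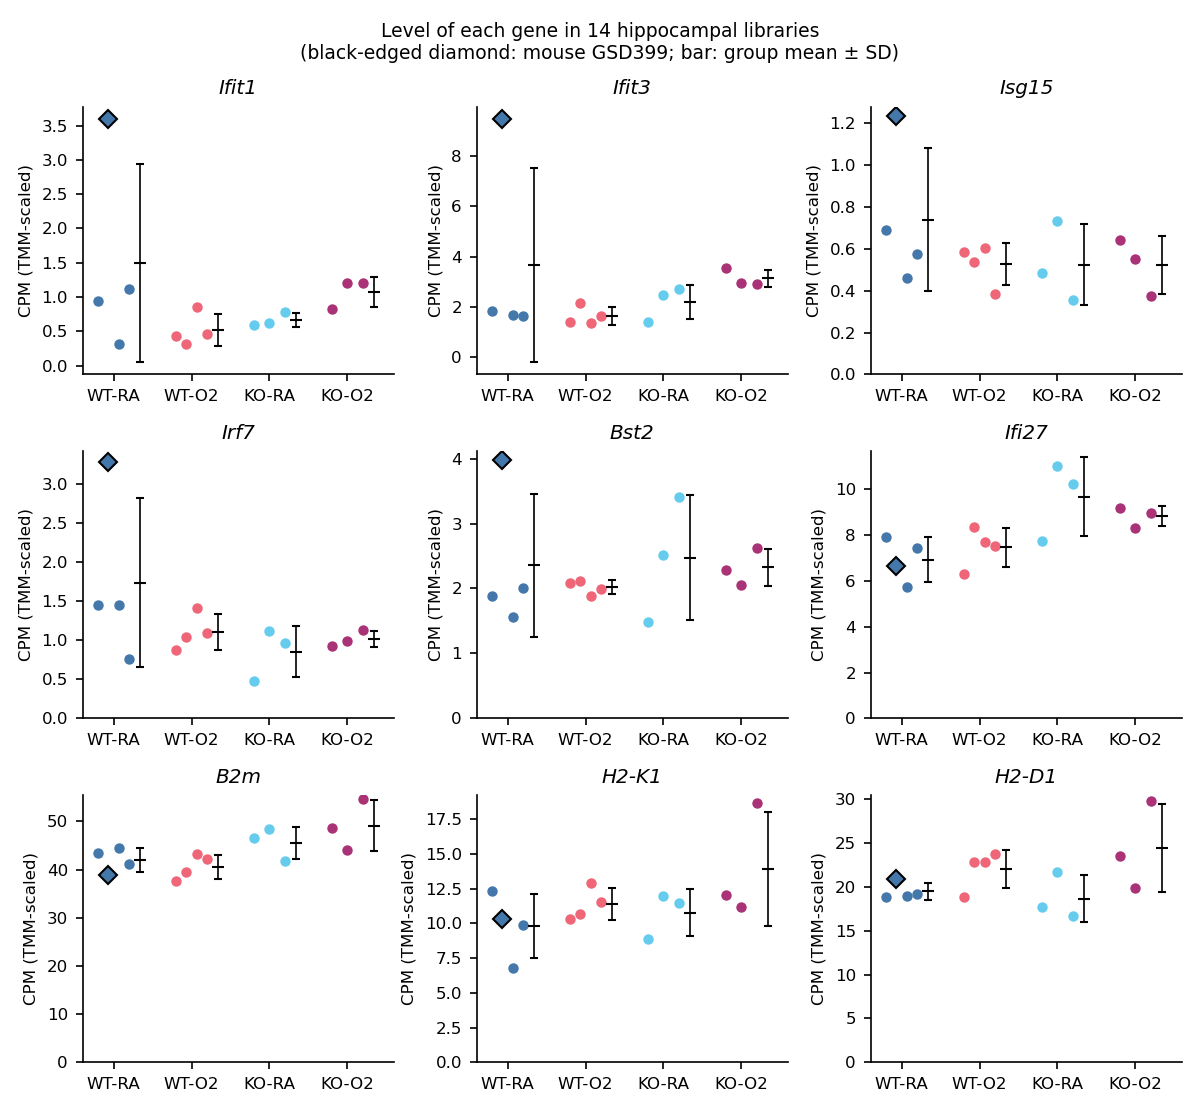
Level of the 9 genes in each library, in CPM scaled by TMM on a linear axis, by group. Points are mice, the black-edged diamond is mouse GSD399, and the bar beside each group is its mean ± SD (n = 4, 4, 3 and 3). Mouse GSD399 is the highest point for Ifit1 (3.59 CPM), Ifit3 (9.47 CPM), Isg15, Irf7 and Bst2, and lies among the others for Ifi27, B2m and H2-K1.

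Ifit1 encodes a protein that binds viral RNA lacking the marks of host caps and blocks its translation. Its level in WT-RA was 0.946, 3.59, 0.318 and 1.11 CPM in mice GSD398, GSD399, GSD400 and GSD401, which were 26, 102, 9 and 31 counts. In WT-O2 it was 0.440, 0.323, 0.850 and 0.456 CPM in GSD404, GSD405, GSD406 and GSD408. In KO-RA it was 0.594, 0.630 and 0.783 CPM in GSD489, GSD490 and GSD496, and in KO-O2 0.823, 1.21 and 1.2001 CPM in GSD491, GSD494 and GSD495. The 2 wild-type groups overlapped, and all 3 KO-O2 mice lay above all 3 KO-RA mice. That gap was narrow, with 23 counts in GSD491 of KO-O2 and 22 in GSD496 of KO-RA. Every library but that of GSD399 had 9 to 33 counts.

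Ifit3, which binds and stabilises Ifit1, was also highest in GSD399 among the WT-RA mice. Its level there was 1.85, 9.47, 1.70 and 1.65 CPM, so 3 mice lay close together and GSD399 far above them. In WT-O2 it was 1.39, 2.15, 1.35 and 1.65 CPM, in KO-RA 1.41, 2.48 and 2.70 CPM, and in KO-O2 3.54, 2.93 and 2.93 CPM. The 3 KO-O2 mice lay above every KO-RA and every WT-O2 mouse. With Ifit3b added to it, the level was 14.3 CPM in GSD399, 2.93 to 3.49 CPM in the other WT-RA mice, 2.45 to 3.58 CPM in WT-O2, 2.45 to 3.56 CPM in KO-RA and 4.48 to 4.76 CPM in KO-O2, so GSD399 and the KO-O2 mice kept their places when the copies were counted as 1 gene.

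Isg15, a ubiquitin-like protein that is attached to other proteins, was measured at 10 to 35 counts a library. Its level was 0.691, 1.23, 0.459 and 0.574 CPM in WT-RA, 0.586, 0.538, 0.602 and 0.386 CPM in WT-O2, 0.483, 0.735 and 0.356 CPM in KO-RA and 0.644, 0.550 and 0.375 CPM in KO-O2. Apart from GSD399 the ranges of the 4 groups overlapped, and that of KO-RA was the widest.

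Irf7, the transcription factor that amplifies type I interferon production, was at 1.45, 3.28, 1.45 and 0.753 CPM in WT-RA. In WT-O2 it was at 0.879, 1.04, 1.42 and 1.09 CPM, in KO-RA at 0.483, 1.12 and 0.961 CPM, and in KO-O2 at 0.931, 0.990 and 1.13 CPM. The lowest value was in KO-RA mouse GSD489, and every pair of groups overlapped.

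Bst2 encodes tetherin, which holds budding virus particles at the cell surface. Its level was 1.89, 3.98, 1.55 and 2.01 CPM in WT-RA, 2.09, 2.11, 1.88 and 1.999 CPM in WT-O2, 1.49, 2.52 and 3.42 CPM in KO-RA and 2.29, 2.05 and 2.63 CPM in KO-O2. The next highest mouse after GSD399 was GSD496 of KO-RA, with a ratio of 1.17 between them, the smallest such ratio among the 5 genes that were highest in GSD399.

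Ifi27, a small mitochondrial membrane protein, departed from these 5 genes. Its level was 7.93, 6.66, 5.72 and 7.42 CPM in WT-RA, 6.30, 8.35, 7.72 and 7.503 CPM in WT-O2, 7.73, 11.0 and 10.2 CPM in KO-RA and 9.20, 8.33 and 8.96 CPM in KO-O2. The 2 highest values were KO-RA mice GSD490 and GSD496, GSD399 was the third lowest of the 14, and KO-RA overlapped WT-RA through mouse GSD489 alone.

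B2m had the narrowest range of the 9 genes. It is the light chain shared by all class I molecules, and was at 43.4, 38.9, 44.6 and 41.2 CPM in WT-RA, 37.6, 39.5, 43.2 and 42.1 CPM in WT-O2, 46.5, 48.3 and 41.8 CPM in KO-RA and 48.6, 44.2 and 54.6 CPM in KO-O2. The highest level was 1.45 times the lowest over the 14 libraries, against 11.3 times for Ifit1, 2.75 times for H2-K1 and 1.79 times for H2-D1. All 3 KO-O2 mice lay above all 4 WT-O2 mice, while the 2 room air groups overlapped.

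H2-K1 and H2-D1 are the classical class I heavy chains of this strain. H2-K1 was at 12.3, 10.3, 6.78 and 9.86 CPM in WT-RA, 10.3, 10.7, 12.9 and 11.6 CPM in WT-O2, 8.84, 11.998 and 11.5 CPM in KO-RA and 12.03, 11.2 and 18.6 CPM in KO-O2. H2-D1 was at 18.8, 20.9, 18.9 and 19.2 CPM in WT-RA, 18.8, 22.8, 22.8 and 23.7 CPM in WT-O2, 17.6, 21.7 and 16.6 CPM in KO-RA and 23.5, 19.9 and 29.7 CPM in KO-O2. Mouse GSD495 of KO-O2 was the highest of the 14 for B2m, H2-K1 and H2-D1, and every pair of groups overlapped for both heavy chains. Their summed level was 48.4 CPM in GSD495 and 25.7 to 35.7 CPM in the other 13 libraries.

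Markers of several tissues, choroid plexus and blood vessels among them, ranked the 3 KO-O2 mice as the class I genes did. The summed level of 8 choroid plexus genes was 1731 CPM in GSD491, 114 CPM in GSD494 and 3439 CPM in GSD495. The summed level of 14 endothelial genes was 332 CPM in GSD491, 266 CPM in GSD494 and 368 CPM in GSD495, and that of 8 pericyte and smooth muscle genes was 355, 272 and 394 CPM. All 3 sums ranked these mice as B2m, H2-K1 and H2-D1 did. So did the astrocyte, meningeal and activated microglial sums, while the oligodendrocyte, blood, microglial and hippocampal neuron sums did not. The choroid plexus order did not hold in KO-RA. There GSD496 had the lowest B2m and H2-D1 with a choroid plexus sum of 3198 CPM, against 41.0 CPM in GSD489. In GSD495 all 8 choroid plexus genes lay above the mean of the other KO-O2 mice (median log2 difference 2.09), as did all 14 endothelial genes (0.335), all 8 pericyte and smooth muscle genes (0.49) and all 7 border macrophage genes (0.70). The same medians were -3.3, -0.40, -0.57 and -0.88 in GSD494. Their part in the class I values was not tested.

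Pairs of members varied together within the groups to different degrees. After the mean of each group was subtracted from log2 CPM, Ifit3 and Bst2 had a Pearson r of 0.86 over the 14 libraries (0.76 without GSD399) and Ifit3 and Irf7 one of 0.79 (0.60 without it). B2m and H2-D1 had an r of 0.72 (0.84 without GSD399), and Ifit3 and B2m one of -0.41 (-0.25 without it). Some pairs of interferon-stimulated genes had low values without GSD399, with Ifit1 and Ifit3 at 0.66 (0.21 without it) and Isg15 and Bst2 at 0.39 (0.0023 without it). Pairs of an interferon-stimulated gene and a class I gene could be higher, with Ifi27 and H2-K1 at 0.67 (0.69 without it) and Ifit1 and H2-K1 at 0.52 (0.61 without it). These values are a description of 14 libraries.

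The first comparison asked what hyperoxia did in wild-type mice. No member was called by edgeR's quasi-likelihood test, where a call needed a log2 fold change of at least 0.32 in either direction, p below 0.05 and a Benjamini-Hochberg adjusted p below 0.1. Of all tested genes 0.643% were called, and limma voom also called no member. DESeq2 called none of the 6 members to which it gave an adjusted p, and gave none to Ifit1, Isg15 and Irf7. Ifit1 averaged 1.49 ± 1.44 CPM (SD, n = 4) in WT-RA and 0.517 ± 0.230 CPM (SD, n = 4) in WT-O2. The fitted log2 fold change was -1.52 (SE 0.54, edgeR adjusted p = 0.268). Ifit3 averaged 3.67 ± 3.87 and 1.63 ± 0.369 CPM, with a log2 fold change of -1.17 (SE 0.49, edgeR adjusted p = 0.353). These 2 of the 9 members had an unadjusted p below 0.05, as did 12.2% of all tested genes. No member separated WT-O2 from WT-RA without overlap, which 5.99% of all tested genes did.

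Both values rested on GSD399. Without that mouse the WT-RA mean was 0.792 ± 0.419 CPM for Ifit1 and 1.73 ± 0.107 CPM for Ifit3 (SD, n = 3), and the log2 fold changes became -0.61 (edgeR adjusted p = 0.643) and -0.08 (edgeR adjusted p = 0.934). Irf7 moved from -0.65 to -0.14, Isg15 from -0.48 to -0.12, and Bst2 from -0.22 to 0.15, and none of these passed the test with or without it. The class I genes moved little, with H2-K1 at 0.21 and 0.24, H2-D1 at 0.18 and 0.22 and B2m at -0.05 and -0.08. The median over the 9 genes was -0.22 with 14 libraries and -0.08 without GSD399, beside -0.01 over all tested genes in either case.

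**Figure D2:**
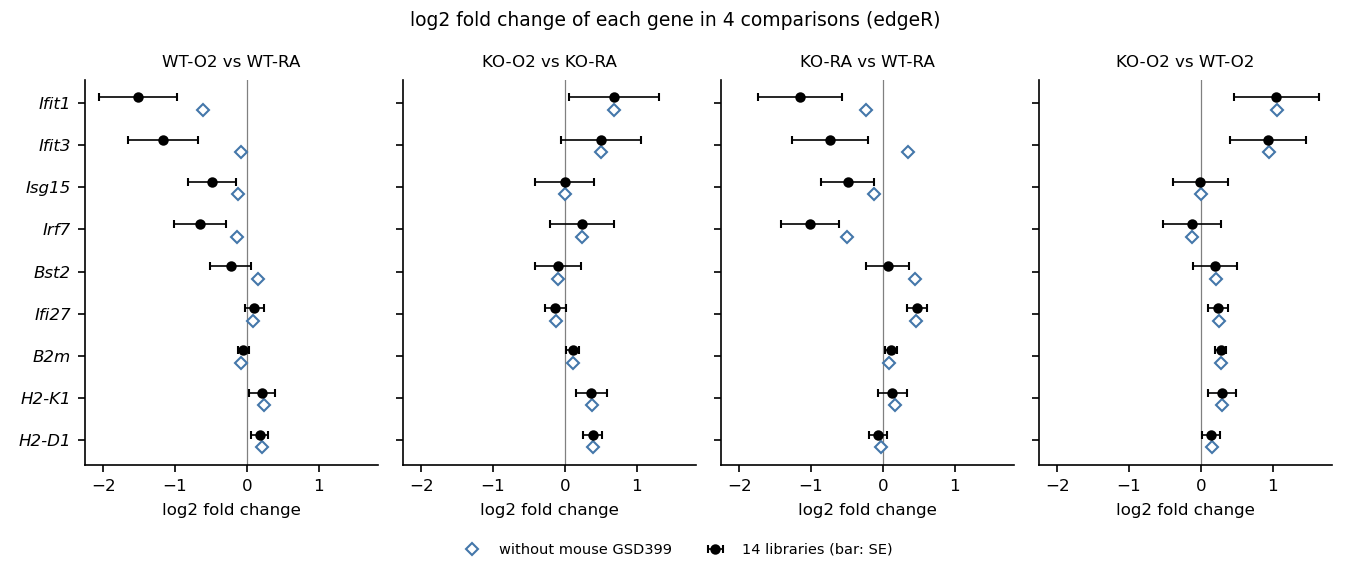
log2 fold change of the 9 genes in 4 comparisons from the edgeR fit. Filled points with SE bars use 14 libraries, and open diamonds leave out mouse GSD399. In WT-O2 against WT-RA the value of Ifit1 goes from -1.52 to -0.61 and that of Ifit3 from -1.17 to -0.08, while the class I genes stay near their values.

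In knockout mice hyperoxia gave no call among the members with edgeR, DESeq2 or limma voom, and edgeR called 0.012% of all tested genes. Ifit1 averaged 0.669 ± 0.1002 CPM (SD, n = 3) in KO-RA and 1.08 ± 0.221 CPM (SD, n = 3) in KO-O2. Its fitted log2 fold change was 0.68 (SE 0.62, edgeR adjusted p = 0.997). Ifit3 averaged 2.20 ± 0.691 and 3.13 ± 0.355 CPM, and its fitted log2 fold change was 0.51 (SE 0.56, edgeR adjusted p = 0.997). These were the 2 members with no overlap between the groups, for Ifit1 by 23 against 22 counts in the nearest mice. Of all tested genes 11.8% had no overlap, and 5.52% had none with KO-O2 higher. H2-D1 was the 1 member with an unadjusted p below 0.05, at 18.6 ± 2.66 and 24.4 ± 4.98 CPM (log2 fold change 0.39, SE 0.14, edgeR adjusted p = 0.886), where 4.86% of all tested genes had such a p. The endothelial sum was 322 to 344 CPM in KO-RA and 266 to 368 CPM in KO-O2, and its part in the result was not tested. With H2-K1 and H2-D1 summed the log2 fold change was 0.38 (SE 0.14, edgeR adjusted p = 0.959). The median over the 9 genes was 0.24, against a value near 0 for all tested genes.

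The third comparison set knockout against wild type in room air. Ifi27 was the 1 member called, in a comparison that called 10.4% of all tested genes, and 3.75% of all tested genes as higher. It averaged 9.66 ± 1.72 CPM (SD, n = 3) in KO-RA and 6.93 ± 0.961 CPM (SD, n = 4) in WT-RA. The fitted log2 fold change was 0.48 (SE 0.14, edgeR adjusted p = 0.0431). The call was lost at a fold of 1.5 and in a fit of the 2 groups alone. It was made without GSD399 (0.47, edgeR adjusted p = 0.0878) but not without GSD490 or GSD496, the 2 knockout mice in which Ifi27 was highest. Those 2 mice also had choroid plexus sums of 3315 and 3198 CPM against 41.0 CPM in GSD489, the KO-RA mouse with the lowest Ifi27. The sums of meningeal genes in GSD490 and GSD496 were 447 and 471 CPM against 216 CPM in GSD489. Those of border macrophage genes were 21.3 and 22.98 CPM against 16.9 CPM. The astrocyte and hippocampal neuron sums went the other way, highest in GSD489 among the KO-RA mice. The sum of pericyte and smooth muscle genes was 361 to 403 CPM in KO-RA and 301 to 344 CPM in WT-RA, without overlap. The part of these markers in the result was not tested.

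Irf7 averaged 0.854 ± 0.331 CPM in KO-RA and 1.73 ± 1.08 CPM in WT-RA, a log2 fold change of -1.01 (SE 0.41, edgeR adjusted p = 0.140), and without GSD399 the value was -0.50 (edgeR adjusted p = 0.430). limma voom with sample weights called it, with a weight of 2.33 on GSD399, the largest of the 14, and 0.463 to 0.661 on the other WT-RA mice. Ifit1 stood at -1.15 with all mice and -0.23 without GSD399. Ifit3 changed sign, from -0.74 to 0.35, and Bst2 went from 0.07 to 0.45, none of them passing the test. The 2 members with an unadjusted p below 0.05, Ifi27 and Irf7, compare with 23.5% of all tested genes, and no member was without overlap where 19.6% of all tested genes were. B2m, H2-K1 and H2-D1 were at 0.12, 0.13 and -0.06, with SEs of 0.08, 0.20 and 0.13.

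Under hyperoxia, knockout against wild type gave no call among the members, with 6.86% of all tested genes called, and neither DESeq2 nor limma voom called any. B2m averaged 49.1 ± 5.26 CPM (SD, n = 3) in KO-O2 and 40.6 ± 2.53 CPM (SD, n = 4) in WT-O2. The fitted log2 fold change was 0.28 (SE 0.08, edgeR adjusted p = 0.0602). It passed the p and q limits and missed the minimum fold change. The endothelial sum was 319 to 358 CPM in WT-O2 and 266 to 368 CPM in KO-O2, and the choroid plexus sum 995 to 1509 and 114 to 3439 CPM. Their part in this result was not tested. Ifit3 had a log2 fold change of 0.94 (SE 0.53, edgeR adjusted p = 0.377) and Ifit1 one of 1.05 (SE 0.59, edgeR adjusted p = 0.375). Ifit3 and B2m had no overlap between the groups, as did 19% of all tested genes, while 8.53% of all tested genes did with KO-O2 higher.

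The test of Ifit3 in this comparison depended on a mouse outside it, because all 14 libraries share the estimate of spread. Without GSD399 its log2 fold change of 0.95 was called (edgeR adjusted p = 0.0271). In a fit of KO-O2 and WT-O2 alone Ifit3 (edgeR adjusted p = 0.0173) and Ifit1 (edgeR adjusted p = 0.0958) were both called. With any 1 mouse left out, 675 to 1335 of all tested genes were called in this comparison. The share for the fit of the 2 groups alone is not given here, so nothing is read from its count. Ifit3 summed with Ifit3b had a log2 fold change of 0.70 (SE 0.45, edgeR adjusted p = 0.452) with all 14 libraries. The other members were at 0.24 for Ifi27, 0.29 for H2-K1, 0.20 for Bst2, 0.15 for H2-D1, -0.12 for Irf7 and -0.01 for Isg15, and none had an unadjusted p below 0.05.

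The interaction of genotype and exposure, the difference between the 2 hyperoxia responses, called 0 of the 9 members and 0% of all tested genes with edgeR. The log2 difference was 2.20 for Ifit1 (SE 0.83, edgeR adjusted p = 1) and 1.67 for Ifit3 (SE 0.75, edgeR adjusted p = 1). These were the 2 members with an unadjusted p below 0.05, beside 4.05% of all tested genes. Without GSD399 they were 1.29 and 0.59, both with an edgeR adjusted p of 1. DESeq2 and limma voom also called 0 members in this term.

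The upstream genes of the pathway gave little signal for the ligands and ample signal for the receptors. Of 21 interferon ligand genes, 16 had 0 counts in every library, none had more than 4 counts in any library, and none was tested. A count of 0 allows up to 3 counts at this depth. All 12 receptor and JAK-STAT genes were tested. Jak1, the kinase shared by the interferon receptors, was at 152 to 176 CPM and was not called in any of the 5 comparisons. Ifngr2, a chain of the interferon gamma receptor, was the 1 gene called, in KO-RA against WT-RA, where 10.4% of all tested genes were called and 3.75% were called higher. It was at 101 to 117 CPM in WT-RA and 131 to 145 CPM in KO-RA, with no overlap (log2 fold change 0.35, edgeR adjusted p = 0.00488), and was not called without KO-RA mouse GSD489.

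Irf9, a part of the complex that binds the ISRE, was looked at after its values were seen. It was at 12.96 CPM in GSD399 and 7.21 to 9.997 CPM in the other 13 libraries. The ratio of GSD399 to the 3 other WT-RA mice was 1.39, smaller than for the 5 members that were highest there. GSD399 was the highest of 14 for 4 of the 12 genes of this list and for 7 of 17 tested nucleic acid sensing genes, beside 4.12% of all tested genes. It was the highest for 1 of 13 interferon regulatory factors and negative regulators, 1 of 15 other class I heavy chains, 3 of 14 genes of class I peptide supply and loading and 0 of 10 class II genes.

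Among 13 interferon regulatory factors and negative regulators none was called in any comparison, where 0% to 10.4% of all tested genes were called. Pias1 and Irf2bp1, the most abundant of them, were at 39.6 to 50.3 and 33.1 to 40.5 CPM. Usp18, which removes Isg15 from its targets and damps the receptor, was at 1.90 CPM in GSD399 and 0.175 to 0.783 CPM in the other 13 libraries, and was named after its values were seen.

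Nucleic acid sensors had 2 calls of 17, both lower in KO-RA than in WT-RA, where 6.7% of all tested genes were called lower. Adar, which edits double-stranded RNA, was at 89.2 to 97.8 CPM in KO-RA and 113 to 129 CPM in WT-RA (log2 fold change -0.33, edgeR adjusted p = 0.00679). Ifih1, a sensor of long double-stranded RNA, had a log2 fold change of -0.61 (edgeR adjusted p = 0.0854). Neither was called without GSD399, at -0.29 for Adar, which then missed the minimum fold change, and -0.49 for Ifih1. Adar was also not called without GSD490, and the call of Ifih1 was lost with any of 9 of the 14 mice left out. Tbk1, the kinase downstream of these sensors, was at 27.6 to 34.8 CPM and was not called.

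A list of 75 other interferon-stimulated genes, of which 66 were tested, was compared between mice. GSD399 was the highest of 14 for 38 of the 66, where KO-O2 mouse GSD495 came next with 8. Oas1a and Cxcl10, both highest in GSD399, passed the filter on low counts only with that mouse included, and of the 64 genes tested without it GSD399 was the highest for 36. Its levels lay above the mean of the other WT-RA mice for 61 of the 66 genes, with a median difference of 0.53 on the log2 scale, against a median near 0 over all tested genes. The same median was -0.04 in GSD398, -0.38 in GSD400 and -0.14 in GSD401, each against a group mean that included GSD399, and between -0.115 and 0.107 in the other 10 mice. The sum over the list was 423 CPM in GSD399 and 315 to 352 CPM in the other 13 libraries.

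**Figure D3:**
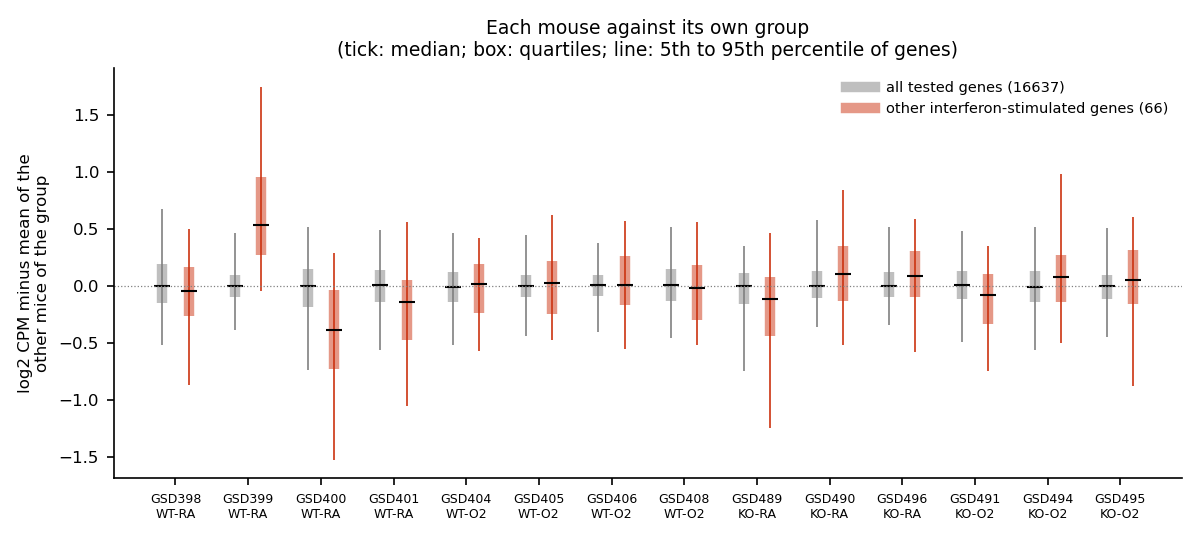
log2 CPM of each mouse minus the mean of the other mice of its group, for all 16637 tested genes (grey) and for 66 other interferon-stimulated genes (red). Ticks are medians, boxes quartiles and lines the 5th to 95th percentile of genes. The red median of GSD399 is 0.53 and its grey median is near 0.

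The genes at least 2-fold above every other WT-RA mouse in GSD399 were named after their values were seen. They were 9 of the 66, namely Ifit3b, Ifi44, Oasl2, Rsad2, Parp14, Slfn2, Phf11d, Iigp1 and Cxcl10, beside 0.307% of all tested genes. Cxcl10 passed the filter on low counts only through GSD399, so its place in this count was helped by the filter. Rsad2, the antiviral enzyme viperin, was at 3.49 CPM in GSD399 and 0.424 to 0.836 CPM in the 3 others. Oasl2, a relative of the oligoadenylate synthetases, was at 6.76 CPM against 2.23 to 2.37 CPM, and Parp14 at 7.22 CPM against 2.12 to 2.76 CPM. Cxcl10, a chemokine that attracts T cells, had 42 counts in GSD399 and 0 to 4 in the 3 others. The sum of 10 lymphocyte markers was 13.8 CPM in GSD399 and 9.61 to 15.0 CPM in the others. All 6 of these markers that were tested lay above the mean of the other WT-RA mice in GSD399, with a median log2 difference of 0.405. Only 5 of these 6 passed the filter on low counts without GSD399, so this count was also helped by the filter. Other genes above that mean in GSD399 were all 7 meningeal genes (median 0.32), 11 of 12 hippocampal neuron genes (0.272) and 7 of 9 thalamic genes (0.254). Only 1 of 8 oligodendrocyte genes (-0.147) and 0 of 8 choroid plexus genes (-0.105) did. The part of these markers in the result was not tested. GSD399 lay inside the WT-RA range for the microglial sum at 602 CPM.

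No gene of the 66 was called in WT-O2 against WT-RA or in KO-O2 against KO-RA. The median log2 fold change in wild-type mice was -0.22, with 17 of 66 values above 0, as were 48.3% of those of all tested genes, and -0.04 without GSD399. In knockout mice it was 0.08, with 42 of 66 above 0, beside 49.4% of all tested genes. Usp25 and Shisa5, the most abundant of the list, were at -0.11 and -0.03 in wild-type mice.

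In KO-RA against WT-RA 1 of the 66 was called higher and 7 lower, beside 3.75% and 6.7% of all tested genes. Mndal, of the interferon-inducible Ifi200 family, was higher at 10.2 to 14.5 CPM in KO-RA and 4.73 to 8.38 CPM in WT-RA (log2 fold change 0.86, edgeR adjusted p = 0.00904). Ifit2, of the same family as Ifit1 and Ifit3, was lower at 5.77 to 6.28 CPM against 8.73 to 12.05 CPM (log2 fold change -0.74, edgeR adjusted p = 0.00152). Mx2, Ifit3b, Trim25, Trim30a, Znfx1 and Pml were the other 6, between -1.23 for Ifit3b and -0.37 for Znfx1. With 1 mouse left out the call was lost for 10 of 14 mice in Trim25 and in Trim30a, 5 in Mx2, 4 in Ifit3b and 1 in Pml (GSD489), and for none in Ifit2, Mndal and Znfx1.

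Without GSD399 the lower calls were 3 of 64 tested, namely Ifit2, Znfx1 and Pml, and the higher calls were Mndal and Iigp1. The median of the list changed sign, from -0.17 to 0.05. With any 1 mouse left out, KO-RA against WT-RA called 1076 to 1929 of all tested genes, higher and lower together. The share for the fit without GSD399 alone is not given here, so nothing is read from these counts. In KO-O2 against WT-O2, Mndal (log2 fold change 0.67) and Xaf1 (0.79, edgeR adjusted p = 0.0867) were called higher and Ifit2 (-0.58) lower, beside 2.51% and 4.35% of all tested genes, and the median was 0.18 with 46 of 66 values above 0. The call of Xaf1 was lost with any of 9 mice left out and that of Mndal without GSD405, GSD406, GSD494 or GSD495. Among all tested genes 47.9% of values were above 0 in that comparison. Of Ifit1, Ifit2, Ifit3 and Ifit3b, Ifit2 was the 1 gene called in both genotype comparisons.

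**Figure D4:**
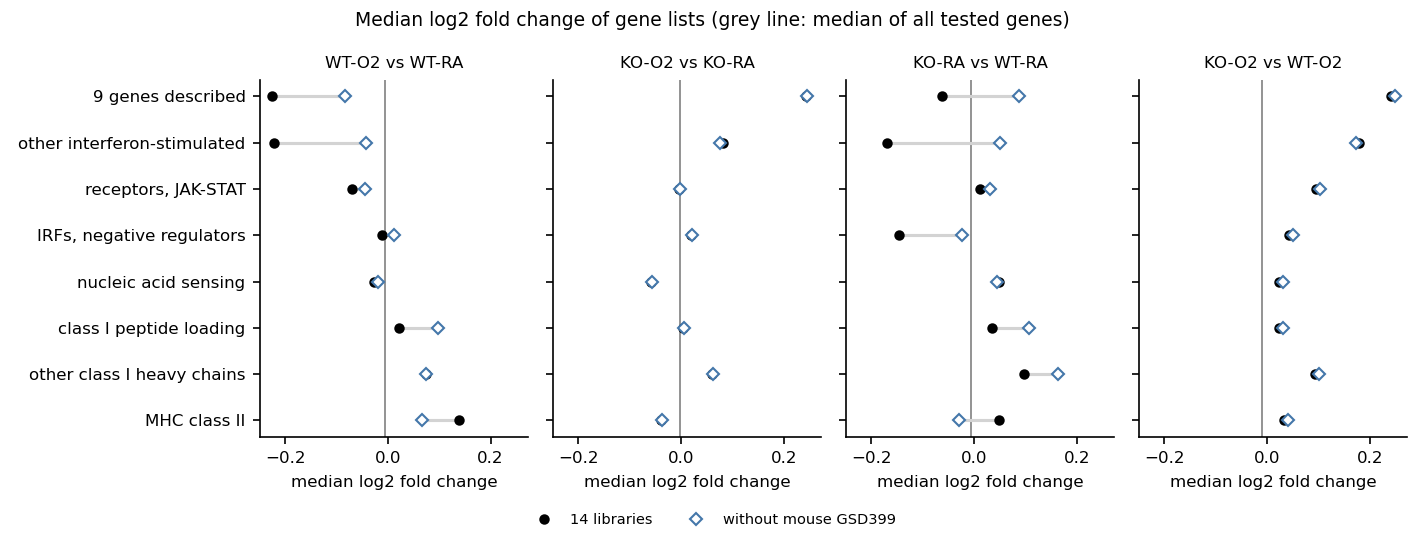
Median log2 fold change of 8 gene lists in 4 comparisons, with 14 libraries (filled) and without mouse GSD399 (open diamonds), beside the median of all tested genes (grey line). The median of the other interferon-stimulated genes goes from -0.22 to -0.04 in WT-O2 against WT-RA and from -0.17 to 0.05 in KO-RA against WT-RA.

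Of 23 other class I heavy chain and related genes 15 were tested and none was called in any comparison, where 0% to 10.4% of all tested genes were called. Fcgrt, the neonatal Fc receptor, was at 11.2 to 17.8 CPM and H2-T22 at 8.79 to 11.5 CPM. None of 14 genes of peptide supply and loading was called either, beside the same shares, and the chaperones Calr and Canx were at 374 to 457 and 288 to 327 CPM. Nlrc5, the transactivator of class I genes, was at 1.09 CPM in GSD399 and 0.149 to 0.681 CPM in the other 13 libraries, and was named after its values were seen.

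Of 10 tested MHC class II genes 1 was called. H2-DMb2, a chaperone of class II peptide loading, was lower in knockout mice in room air (log2 fold change -1.24, edgeR adjusted p = 0.0238) and under oxygen (-1.24, edgeR adjusted p = 0.0386), where 6.7% and 4.35% of all tested genes were called lower. The first call was lost without GSD489. The second was lost without GSD408, GSD491 or GSD495, with DESeq2 and without a filter on low counts. Its level was 0.150 to 0.330 CPM in knockout and 0.430 to 0.618 CPM in wild-type libraries, or 4 to 9 and 12 to 17 counts. H2-DMa, at 10.6 to 16.1 CPM, and Cd74, at 0.587 to 2.98 CPM, were not called.

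The genes whose pattern was most like the mean of the 9 members after subtraction of group means were Lrrk1, Zc3hav1, Rsad2, Sp100, Ecm1, Sqor, H2-Q4, Tor3a, Saxo2 and Oaf. Their Pearson r over the 14 libraries ran from 0.86 to 0.91, and from 0.82 to 0.87 without GSD399. Zc3hav1, an antiviral zinc finger protein, had an r of 0.90 and a Spearman rho of 0.84. Without the subtraction the closest were Zc3hav1, Parp3, Slc12a7, Ifi207, Gng5, Tnfaip2, Tnni3, Tap2, Dok1 and Tor3a, with r from 0.76 to 0.86.

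B2m, H2-K1 and H2-D1 alone, a subset outside the rule for named genes, had other nearest genes after subtraction of group means. These were Ltbp4, Zdhhc4, Vwf, Atp2a3, Itpr3, Acta2, Tgm2, Eng, Armc4 and Grn, with r from 0.85 to 0.92, and from 0.86 to 0.92 without GSD399. Vwf encodes von Willebrand factor of endothelial cells (r = 0.91), Eng the endothelial receptor endoglin (r = 0.86) and Acta2 the actin of smooth muscle (r = 0.88). All these r values were picked as the highest among all tested genes and are given as a description.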

How the data were processed

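RNA of 14 hippocampi, 1 mouse a library, was sequenced with reads of 150 bp. The authors quantified it with Kallisto on GRCm39 and summarised it per gene, and the deposited table holds estimated counts (41.0 to 43.2% of values not whole), which were rounded. Symbols were matched for 35825 of 36118 identifiers through GENCODE M21. Low genes were removed with filterByExpr, libraries scaled by TMM and 1 coefficient per group fitted to all 14 libraries with edgeR 4.0.16 (R 4.3.3), without covariates. A call needed a log2 fold change of 0.32 either way, p below 0.05 and a Benjamini-Hochberg adjusted p (q) below 0.1, two-sided, over 16637 genes. CPM are scaled by TMM, log2 CPM have a prior count of 2, and an SE is the log2 fold change over the root of F. DESeq2 1.42.0, limma 3.58.1, other scalings, filters and thresholds, each mouse left out, GSD408 as WT-RA and summed copies were alternatives. The procedure was tested on simulated data. Named genes were all 9 members and, per list, each called gene and the 2 most abundant. The genes and lists were chosen with earlier results of these data known. Each edgeR p-value set a difference between groups against the spread between mice, estimated from all 14 libraries. Per the study's methods, wild-type mice were littermates of knockouts, and litter was not in the fit. Promoter windows came from RefSeq, and gene positions are given only for them, in GRCm38.p6. A withheld item is not reported here.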

Additional observations from a re-analysis of the deposited data

Results flagged for a closer look

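In groups of 4 mice, 44 sets of values of 22 named genes were screened for a mouse whose gap to the nearest other mouse, as a share of the whole range, passed Dixon's critical value, which chance gives in about 1 in 20 groups. This flagged 3 of the 44 sets, close to that rate, and 2 of the 18 sets of members. Mouse GSD399 stood apart in WT-RA for Ifit3, at 9.47 CPM with the next mouse at 1.85 CPM. It also stood apart for Ifit3b, at 4.79 CPM with the next at 1.64 CPM, and these copies share reads. For H2-D1 it was at 20.9 CPM with the next at 19.2 CPM, a small distance that was wide only beside the closeness of the 3 others.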

How the results depend on the processing

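Of the 9 members none was called in WT-O2 against WT-RA, in KO-O2 against KO-RA or in the interaction under any alternative run, and the interaction could not be fitted with 2 groups alone. In the first of these DESeq2 gave no adjusted p for Ifit1, Isg15 and Irf7. In KO-RA against WT-RA the 1 called member became 2 with limma voom and sample weights (Irf7 added, with the largest weight, 2.33, on GSD399, without which Irf7 was -0.50 in edgeR), 0 at a fold of 1.5, 0 in a fit of the 2 groups alone and 0 to 2 with 1 mouse left out. In KO-O2 against WT-O2 the count of 0 became 2 in a fit of the 2 groups alone and 0 to 1 with 1 mouse left out (Ifit3 without GSD399, B2m without GSD494). The share of all tested genes called in that fit of 2 groups is not given here, so nothing is read from its count. Over all genes, the 107 calls in WT-O2 against WT-RA became 304 with DESeq2, 361 with limma voom, 46 at a fold of 1.5, 22 at q below 0.05, 20 with the 2 groups alone, 6 with GSD408 as WT-RA and 13 to 272 with 1 mouse left out. The 2 calls in KO-O2 against KO-RA became 13 with DESeq2, 6 without a filter, 4 with the 2 groups alone, 0 with GSD408 as WT-RA and 1 to 4 with 1 mouse left out. The 1738 calls in KO-RA against WT-RA became 942 at a fold of 1.5 and 1076 to 1929 with 1 mouse left out, and the 1142 in KO-O2 against WT-O2 became 607 and 675 to 1335. Values that changed sign were mostly small: Isg15 in KO-O2 against KO-RA was 0.0014 with DESeq2, 0.0028 with its size factors and 0.0014 with 10 counts required in every library, and in KO-O2 against WT-O2 0.0018, 0.0029, 0.0018 without a filter and 0.00074 with the 2 groups alone. With limma voom B2m in wild-type mice was 0.010 and Bst2 in KO-RA against WT-RA was -0.15, and H2-D1 in KO-RA against WT-RA was 0.0066 when summed with H2-K1, an alternative chosen after seeing the data, as was the sum of Ifit3 and Ifit3b. The latter sum was at -1.07 in WT-O2 against WT-RA and 0.54 in KO-O2 against KO-RA. It was at -0.91 in KO-RA against WT-RA and 1.61 in the interaction. The sum of H2-K1 and H2-D1 was at 0.19 in WT-O2 against WT-RA, 0.20 in KO-O2 against WT-O2 and 0.19 in the interaction. With 1 mouse left out, log2 fold changes in WT-O2 against WT-RA ran from -0.38 to 0.15 for Bst2. In KO-O2 against KO-RA they ran from -0.22 to 0.32 for Isg15, -0.036 to 0.48 for Irf7 and -0.35 to 0.21 for Bst2. In KO-RA against WT-RA they ran from -0.98 to 0.35 for Ifit3, -0.22 to 0.45 for Bst2, -0.0031 to 0.27 for H2-K1, -0.18 to 0.027 for H2-D1 and -0.33 to 0.038 for Xaf1. In KO-O2 against WT-O2 they ran from -0.19 to 0.18 for Isg15, -0.22 to 0.025 for Irf7, -0.021 to 0.27 for H2-D1 and -0.11 to 0.044 for Pml. In the interaction they ran from -0.24 to 0.43 for Bst2 and -0.11 to 0.30 for H2-K1. Calls of other named genes were also lost. In KO-RA against WT-RA these were Ifngr2, Adar, Trim25, Znfx1 and Pml at a fold of 1.5, Ifih1, Ifit3b, Mx2, Trim25 and Trim30a at q below 0.05 and with the 2 groups alone, Ifih1, Adar, Trim25 and Trim30a without a filter, those 4 and Ifit3b with GSD408 as WT-RA, and Trim25 with DESeq2 size factors. In KO-O2 against WT-O2 they were Ifit2 at a fold of 1.5, Xaf1 at q below 0.05, with limma voom, with library size alone and with GSD408 as WT-RA, Mndal with GSD408 as WT-RA, and H2-DMb2 with DESeq2 and without a filter. The causes were not tested. Ifit1, Isg15 and Irf7 rest on 9 to 102 counts a library, which limits their precision.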
